A study of Mus musculus with 8 samples.

Results

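The genes described here encode the proteins of the cytosolic ribosome. They were taken by name: symbols of the form Rpl or Rps with a number and at most 1 further letter (a, x or l), together with Rplp0, Rplp1, Rplp2 and Rpsa. Of the 31053 genes in the deposited matrix 80 carried such a name, and the 77 with a transcript count (unique molecular identifier, UMI) in at least 100 cells were kept, 31 of the small subunit and 46 of the large one. The 3 others were Rpl39l with a UMI in 29 cells, Rpl3l in 8 and Rpl10l in 1. Fau, Rack1 and Rps3a1, among others, also belong to the ribosome but have other names and lie outside the rule.

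A cytosolic ribosome joins a small subunit, which reads the messenger RNA, to a large subunit, which forms the peptide bonds. Most ribosomal proteins are needed once per ribosome, and their messenger RNAs are among the most abundant of growing cells. Many of these messages begin with a run of pyrimidines at the 5′ end, through which the mTOR pathway controls their translation. In the colon the dividing cells of the crypt base renew an epithelium whose upper cells absorb or secrete and no longer divide.

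Single cells of the distal colonic mucosa of 8 mice, aged 8 weeks, were sequenced from their 3′ transcript ends on the 10x Chromium platform. The 4 mice labelled KO (mice 2, 3, 6 and 7) carried loxP-flanked Spry2 alleles and Vil1::Cre, a recombinase under a promoter active in the intestinal epithelium. The 4 WT-labelled mice (mice 1, 4, 5 and 8) were littermates with the flanked alleles and no Cre, so the flanked alleles were common to both groups. Spry2 encodes Sprouty2, an inhibitor of growth factor signalling. The libraries held 3302 to 10101 cells and 17.0 to 37.3 M UMIs per mouse. CPM are UMIs scaled to the non-mitochondrial total of the sum. Spry2 itself was at 22.2 ± 18.2 CPM (SD, n = 4) in the epithelium of KO-labelled mice. It was at 23.5 ± 11.6 CPM (SD, n = 4) in that of WT-labelled mice. The groups overlapped (10.4 to 49.3 and 11.2 to 37.6; two-sided exact permutation test, p = 0.857). A count of 3′ ends may lie outside the deleted stretch, and whether it does was not checked. Recombination was therefore not judged from these counts, and the groups are called by their labels. The marker lists of epithelium, fibroblasts, B cells, T cells and macrophages each had their highest mean in the class of that name. The endothelial list was highest in Lymphatics. In the class named Endothelium the plasma cell list had a higher mean over 6 mice (5834 CPM) than the endothelial list (3479 CPM). The plasma cell list ran from 265 to 23310 CPM over these mice and the endothelial list from 2600 to 4122. The order thus did not hold in every mouse.

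The pyrimidine runs can be seen at the annotated start of some members and not of others. RefSeq start sites on GRCm38.p6, the build also named mm10, were found for 57 of the 77 members. The lines below give 10 bases before the start and 20 from it, with capitals for the run of C and T that opens with a C at the start itself. They show 4 genes with a run, and then Rps28, Rpl41 and Rps27l, on which later results turn. At the start itself these have a short run or none. In Rps27l a run of 5 letters begins just after the annotated start.
Rps6: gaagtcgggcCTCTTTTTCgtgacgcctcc
Rps27: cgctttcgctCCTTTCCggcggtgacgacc
Rpl38: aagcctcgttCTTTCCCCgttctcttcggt
Rpl15: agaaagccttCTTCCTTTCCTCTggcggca
Rps28: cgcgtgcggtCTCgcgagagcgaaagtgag
Rpl41: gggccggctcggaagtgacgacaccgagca
Rps27l: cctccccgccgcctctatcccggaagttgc
These windows lie at chr4:86857348-86857377 (minus strand), chr3:90213629-90213658 (minus), chr11:114668570-114668599 (plus), chr14:18270967-18270996 (minus), chr17:33824543-33824572 (minus), chr10:128549149-128549178 (minus) and chr9:66946076-66946105 (plus), in the order of the lines. A run of at least 5 letters, C then only C or T, read on the gene's own strand, began at an annotated start of 13 of the 57 members (22.8%) and of 813 of 27025 genes with a RefSeq window (3.01%). Allowing the run to begin up to 5 bases to either side raised these shares to 49.1% and 21.2%. Annotated starts can be off by some bases, and a match is a description of the letters only.

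The 77 members supplied 16.7% of all UMIs outside mitochondrial genes. No single gene dominated. The median member held 1.32% of the members' UMIs, and the 5 with most, Rps24, Rpl13, Rpl23, Rps20 and Rps29, held 12.3% together. Rpl13a (0.066%) and Rps27l (0.189%) had the fewest. These are counts of 3′ ends and are not scaled by length. Ribosomal protein genes have many near-identical pseudogene copies, and how reads matching several places were counted is not given in the sources used here, so an order between members is uncertain.

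Among the 8 classes with replicate mice, ribosomal protein transcripts weighed most in lymphocytes and least in vessel lining, muscle-like cells and epithelium. Their share of non-mitochondrial UMIs was 27.0% ± 2.37 in T cells, 19.4% ± 4.33 in B cells, 15.0% ± 0.492 in Fibroblasts and 12.5% ± 2.90 in Epithelium (SD, n = 8 mice each). Macrophages stood at 18.3% ± 1.49 and Lymphatics at 13.3% ± 0.917 (SD, n = 7 each). Endothelium stood at 11.1% ± 2.11 (SD, n = 6) and Myofibroblasts at 11.3% ± 0.861 (SD, n = 3). A mouse entered a class with 20 or more of its cells. T cells exceeded B cells in 8 of 8 mice, Macrophages exceeded Fibroblasts in 7 of 7, and Fibroblasts exceeded Lymphatics in 7 of 7. B cells and Macrophages kept no fixed order (5 of 7 mice), nor did Lymphatics and Epithelium (4 of 7) or Myofibroblasts and Endothelium (2 of 3). Pooled over mice, with no replicate, the share was 15.4% in 33 Dendritic cells, 6.01% in 42 Glia and 4.07% in 32 Neutrophils. The authors drew the classes from the same cells and genes, so class differences are descriptions and carry no test.

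**Figure D1:**
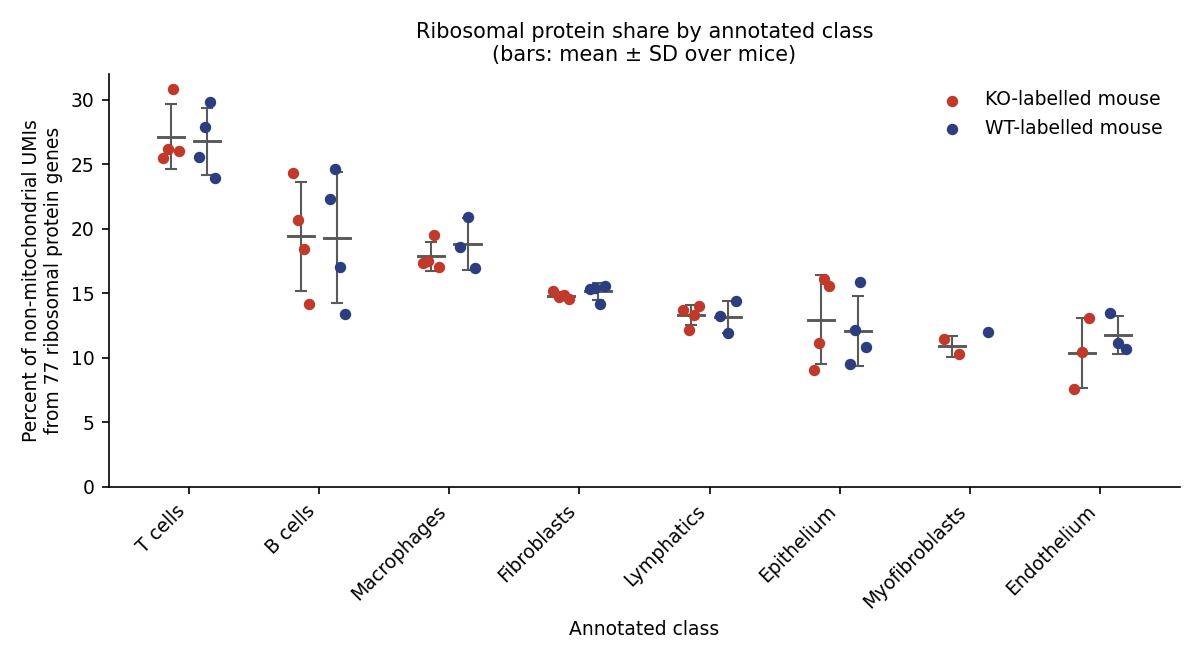
Percent of non-mitochondrial UMIs from the 77 ribosomal protein genes (vertical axis) in each annotated class, 1 point per mouse with 20 or more cells of the class, red for KO-labelled and blue for WT-labelled mice, with mean ± SD per group where it has more than 1 mouse. T cells lie at 23.9 to 30.9% and Fibroblasts at 14.2 to 15.6%, while B cells and Epithelium spread widely within both groups.

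B cells varied in both share and makeup. Their share was 24.6, 24.4, 22.3, 20.7, 18.5, 17.0, 14.2 and 13.4% in mice 4, 2, 1, 3, 6, 5, 7 and 8. Plasma cells supplied 20.8, 15.5, 29.7, 35.5, 53.5, 59.9, 69.0 and 77.7% of the B cell UMIs in the same mice. Mice with more plasma cell RNA in general had less ribosomal protein RNA in the class, while within the subtype B mature the share stayed between 26.8 and 30.8% in all 8 mice. The part of makeup in the spread was not tested. Among T cells the share was 30.9, 29.8, 27.9, 26.2, 26.0, 25.6, 25.5 and 23.9% in mice 6, 5, 4, 3, 7, 1, 2 and 8. The subtype Memory gave 38.4, 30.3, 21.7, 20.2, 15.5, 29.6, 18.9 and 3.54% of the T cell UMIs in the same mice. The highest and lowest mice were the same for both, but mouse 1 combined much Memory RNA with a low share. The subtype Inactive, which had a low share itself, gave 1.90, 2.63, 12.6, 13.6, 1.82, 25.1, 18.7 and 3.06% in the same order of mice. The part of these subtypes in the T cell spread was not tested.

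Among the authors' named subtypes the range ran from 40.2% to 3.19%. T cells of the subtype Memory stood highest (40.2% ± 1.17, SD, n = 7), above Activated T cells (29.2% ± 0.886, SD, n = 8) in 7 of 7 mice. B mature (28.6% ± 1.35, SD, n = 8) and B progenitors (27.1% ± 0.529, SD, n = 5) came next. Innate and other lymphocytes had lower means: ILC2 at 25.2% ± 2.17 (SD, n = 8), ILC1-NK at 23.1% ± 1.67 (SD, n = 8), Tregs at 22.5% ± 1.13 (SD, n = 7) and IELs at 21.8% ± 1.61 (SD, n = 6). ILC2 exceeded ILC1-NK in 8 of 8 mice, whereas Activated and B mature (5 of 8), B progenitors and ILC2 (3 of 5), ILC1-NK and Tregs (4 of 7), and Tregs and IELs (2 of 5) were not ordered across mice. Among subtypes rich in the fibroblast list, CD90-pos stood at 14.8% ± 0.521 (SD, n = 8) and its Igfbp3 variant at 15.5% ± 0.957 (SD, n = 7). MSCs stood at 12.5% ± 0.738 (SD, n = 3), and CD90-neg, Sox6-Bmp cells at 8.45% in the 1 mouse with enough cells. At the bottom stood Plasma cells (8.41% ± 0.440, SD, n = 8), goblet (3.96% ± 0.719, SD, n = 3) and enterocyte cells (3.19% ± 1.07, SD, n = 4).

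**Figure D2:**
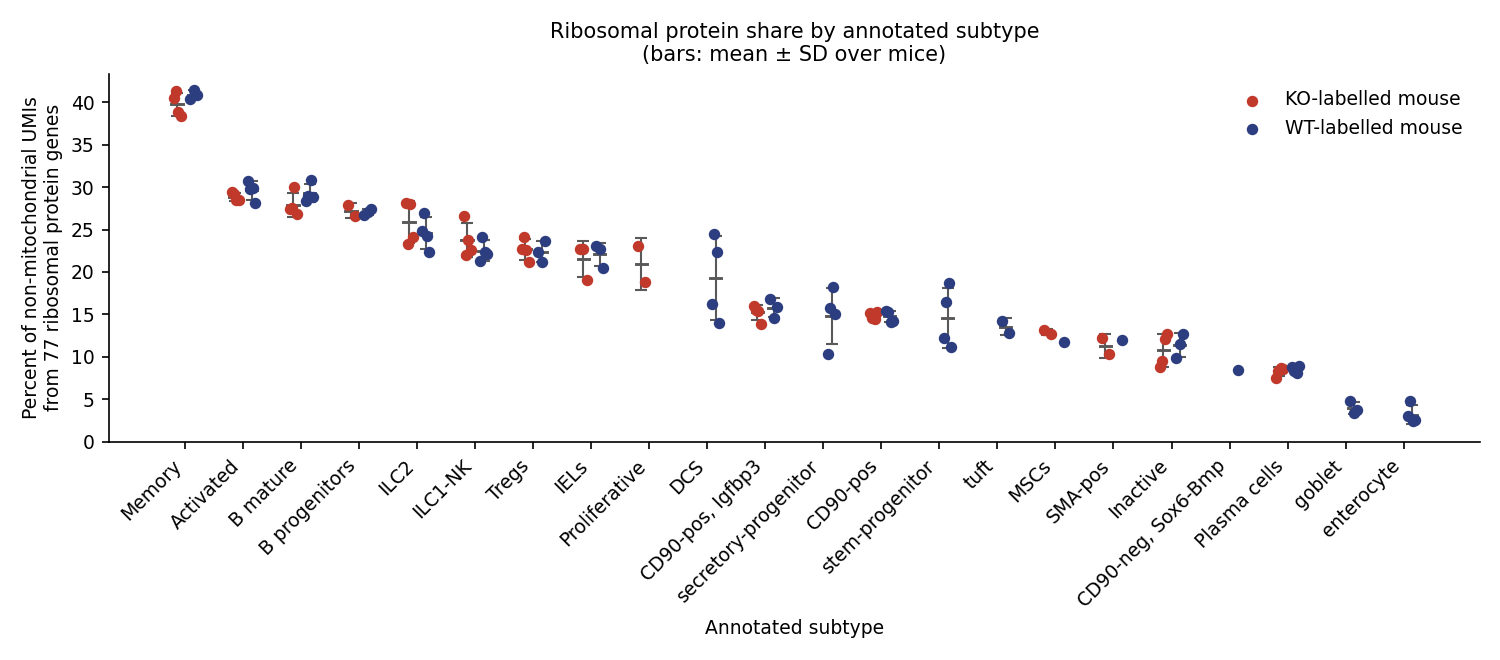
Percent of non-mitochondrial UMIs from the 77 ribosomal protein genes (vertical axis) in each annotated subtype, ordered by mean, 1 point per mouse with 20 or more cells, red for KO-labelled and blue for WT-labelled mice, bars for mean ± SD. Memory T cells lie at 38.4 to 41.4% and enterocyte cells at 2.45 to 4.76%; named epithelial subtypes have WT-labelled mice only.

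T cells named Inactive stood apart from the other T cells at 11.0% ± 1.60 (SD, n = 7). Their cells were shallow, with a median of 762 UMIs against 2744 in Memory, and had a median of 16.4% mitochondrial UMIs against 4.55%. They carried the T cell list at 3161 CPM but also the epithelial list at 1166 CPM, which was 138 CPM in Memory. At 1000 to 2000 UMIs per cell the share was 11.9% ± 2.19 (SD, n = 5) in Inactive and 32.9% ± 2.26 (SD, n = 3) in Memory cells, over different sets of mice and with depth free to differ inside the bin. Depth moved with the share inside a subtype as well: B mature cells of 500 to 1000 UMIs had 13.7% ± 4.37 (SD, n = 7) and those of 2000 to 4000 UMIs 30.4% ± 0.994 (SD, n = 8). CD90-pos fibroblasts over the same bins had 13.7% ± 1.53 and 15.0% ± 0.705 (SD, n = 7 each). What depth and RNA quality contribute to the low share of shallow lymphocytes was not tested.

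Within the epithelium the share was higher in stem-progenitor, secretory-progenitor and DCS cells than in enterocyte and goblet cells. The authors' epithelial subtype names exist in WT-labelled mice only, for 6502 of their 13229 epithelial cells; none of the 10558 epithelial cells of KO-labelled mice has one. The share in stem-progenitor cells was 12.2, 16.5, 18.6 and 11.2% in mice 1, 4, 5 and 8, and in enterocyte cells 3.00, 4.76, 2.45 and 2.55%. The ranges did not overlap. Secretory-progenitor cells had 14.8% ± 3.30 (SD, n = 4) and the cells named DCS 19.3% ± 4.92 (SD, n = 4), DCS being above stem-progenitor cells in 4 of 4 mice. The median DCS cell was shallow, with 1167 UMIs against 9138 in stem-progenitor cells, and had 0.309% mitochondrial UMIs against 17.3%. What depth and mitochondrial content contribute to the higher DCS share was not tested. Tuft cells had 14.2 and 12.8% in mice 5 and 8, the 2 mice with enough of them. Stem-progenitor cells were above tuft cells in 1 of these 2 mice. In a share of summed UMIs, fewer ribosomal protein transcripts and more of other transcripts cannot be told apart. A median stem-progenitor cell held 578 ribosomal protein and 6776 other non-mitochondrial UMIs, and a median enterocyte 52 and 1284.

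The contrast ran through the set gene by gene. Each of the 77 members was higher in stem-progenitor than in enterocyte cells in 4 of 4 mice, against 48.4% of 7945 genes of at least 20 CPM (the CPM of both subtypes added) that were higher in every mouse. The members' median difference was 2.29 on the log2 scale of CPM, and that of all genes 0.30. Rpl3, a core protein of the large subunit, differed most: 1470 ± 363 CPM in stem-progenitor and 173 ± 124 CPM in enterocyte cells, a log2 ratio of 3.31 ± 1.01 (SD, n = 4). Rps6, the S6 kinase substrate, was at 941 ± 303 and 151 ± 46.2 CPM (log2 ratio 2.62 ± 0.495, SD, n = 4). Rpl41, the smallest protein of the set, differed least, at 3911 ± 836 and 1634 ± 377 CPM (1.26 ± 0.506, SD, n = 4), next to Rps27 (1.37) and Rpl9 (1.39). Secretory-progenitor over goblet cells gave the same picture: 77 of 77 members were higher in 3 of 3 mice (46.0% of 7820 genes), with a median of 2.09 against 0.53 for all genes. Rps29 differed least there (1.18 ± 0.276, SD, n = 3) and Rpl36a most (3.16 ± 0.922, SD, n = 3). In DCS over stem-progenitor cells 60 members were higher in 4 of 4 mice, against 9.70% of 7926 genes, and 1, Rpl23a, was lower in 4 of 4, against 43.8% of genes. The members' median was 0.40 there and that of all genes -0.97. DCS and stem-progenitor cells also differ in depth and mitochondrial content, as given above.

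Mitochondrial content moved with the epithelial share. The share was 19.5% ± 2.98 in epithelial cells with under 10% mitochondrial UMIs, 6.19% ± 0.730 at 30 to 50%, and 18.2% ± 1.37 at 90% and above (SD, n = 4, mice 1 to 4). Mice 5 to 8 gave 19.7% ± 4.57, 5.88% ± 0.755 and 13.7% ± 2.03 (SD, n = 4). In mice 1 to 4 the B cell list averaged 65.5, 79.8 and 304 CPM in the same ranges of mitochondrial content. The epithelial list averaged 8420, 12039 and 7232 CPM there. In mice 5 to 8 the B cell list ran from 2.97 to 86.7 CPM at 30 to 50%. At 90% and above it ran from 0 to 250 CPM in those mice. The part of B cell RNA in the share of these cells was not tested. With cells under 20% mitochondrial UMIs alone, stem-progenitor cells had 16.1% ± 4.03 and enterocyte cells 2.72% ± 0.524 (SD, n = 4 each), so the contrast was present within the low range too. Cells over 50% mitochondrial UMIs were 53.5 to 79.6% of the epithelial cells of mice 1 to 4 and 11.1 to 37.2% in mice 5 to 8. The epithelial share was 9.07 to 12.1% in mice 1 to 4 and 10.9 to 16.1% in mice 5 to 8. Whether cell damage sets this difference was not tested.

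The authors' clusters cover the epithelium of both genotypes. Cluster 4, whose named cells are mostly enterocyte, had 3.16% ± 0.769 (SD, n = 8), and cluster 5, mostly stem-progenitor, 12.0% ± 2.68 (SD, n = 8). The highest value was 26.3% ± 1.86 (SD, n = 8) in cluster 16, where only 16 of 1215 cells have a subtype name and the median cell had 0.265% mitochondrial UMIs. The epithelial list was at 7762 CPM there, the B cell list at 114 CPM and the T cell list at 41.2 CPM. In none of the 9 clusters with both genotypes did KO-labelled and WT-labelled mice separate.

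**Figure D3:**
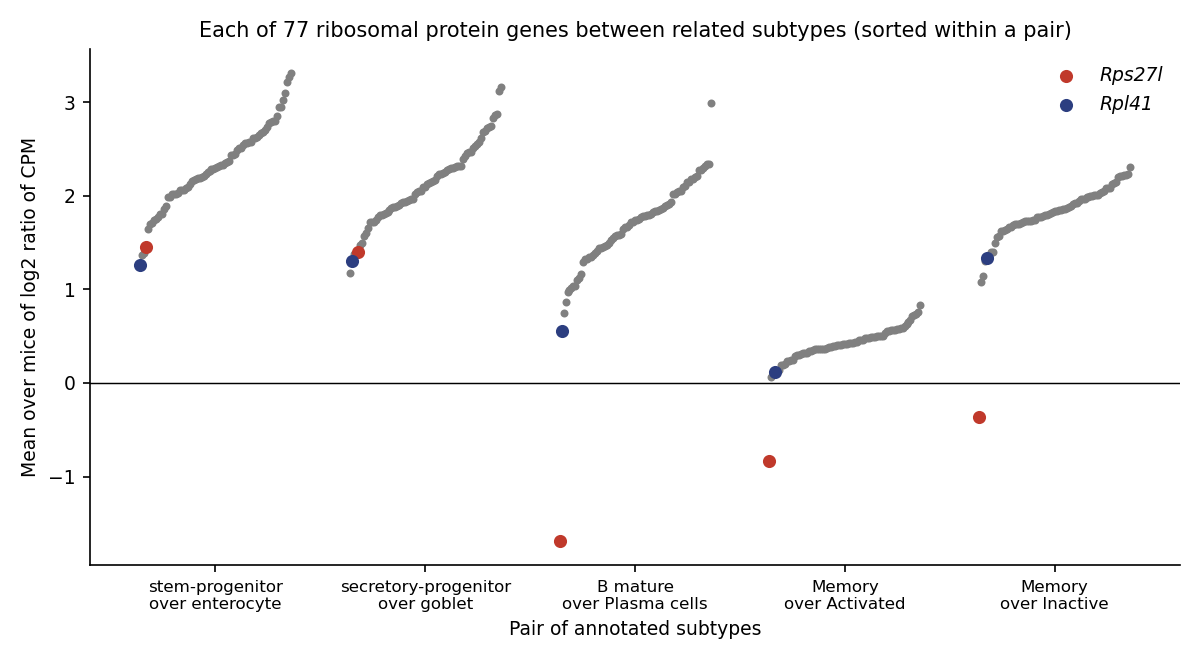
Log2 ratio of CPM, averaged over mice (vertical axis), of each of the 77 ribosomal protein genes in 5 pairs of subtypes, genes sorted from lowest to highest within a pair, Rps27l in red and Rpl41 in blue. All 77 points lie above 0 in both epithelial pairs; Rps27l alone lies below 0 in the other 3.

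Plasma cells differed from B mature cells in the same direction, with 1 exception. In 8 of 8 mice 76 of 77 members were higher in B mature cells, as were 68.3% of 6940 genes (8.00% were lower), with medians of 1.74 and 1.19 on the log2 scale. Immunoglobulin genes gave 56.6% ± 2.83 of the plasma cell UMIs, and without them the plasma cell share was 19.4% ± 0.935, still below 29.0% ± 1.38 in B mature cells counted likewise (SD, n = 8 each). Rps27 had the widest ratio, 8330 ± 1616 CPM in B mature and 1044 ± 184 CPM in Plasma cells (2.99 ± 0.113, SD, n = 8). The exception was its close relative Rps27l, at 112 ± 28.8 and 359 ± 51.9 CPM (-1.69 ± 0.393, SD, n = 8), lower in B mature cells in 8 of 8 mice. In Memory over Activated T cells 70 of 77 members were higher in 7 of 7 mice, against 4.71% of 7494 genes (19.1% were lower), with medians of 0.41 and -0.31. Rps19 led with 7979 ± 244 against 4489 ± 399 CPM (0.83 ± 0.120, SD, n = 7), and Rplp0, of the ribosomal stalk, was close behind (0.74 ± 0.0885, SD, n = 7). Rps27l was the 1 member lower in 7 of 7 mice (-0.84 ± 0.522, SD, n = 7), and the others, among them Rpl38, Rpl27, Rps12, Rpl7a and Rpl13a, varied in direction. Over Inactive T cells 76 of 77 members were higher in Memory cells in 7 of 7 mice, against 4.14% of 8065 genes, and Rps27l varied in direction. Between ILC2 and ILC1-NK the set was not uniform: 19 members were higher in ILC2 in 8 of 8 mice (5.00% of 7853 genes) and 3 were lower (5.39%), with Rplp1 at the top (0.78) and Rps27l at the bottom (-0.39).

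Within the ribosomal protein total, Rps27l departed most from the rest. Rps27l encodes a near copy of Rps27 and is known as a p53 target gene. Taking each gene as a percent of the members' UMIs, the median gene varied by 0.49 on the log2 scale between its highest and lowest of 8 classes, and Rps27l by 2.84. It made up 0.324% ± 0.0577 in Epithelium and 0.0453% ± 0.00649 in T cells (SD, n = 8 each). In the epithelium the per-mouse values were 0.310, 0.356, 0.274 and 0.267% in KO-labelled mice 2, 3, 6 and 7 and 0.325, 0.303, 0.310 and 0.449% in WT-labelled mice 1, 4, 5 and 8. In T cells they were 0.0382, 0.0484, 0.0425 and 0.0462% in the KO-labelled and 0.0447, 0.0447, 0.0388 and 0.0588% in the WT-labelled mice. Every epithelial value lay above every T cell value, in both groups.

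In level as well as weight, Rps27l was lower in T cells and mature B cells than in the epithelium or plasma cells, where Rps27 was lower. Within the epithelium both genes were higher in stem-progenitor than in enterocyte cells (Rps27l 501 ± 50.4 and 183 ± 22.5 CPM, Rps27 2635 ± 793 and 1023 ± 361 CPM, SD, n = 4 each). In CPM, Rps27l was at 399 ± 77.1 in Epithelium and 121 ± 13.0 in T cells, whereas Rps27 was at 2238 ± 400 and 6008 ± 1272 (SD, n = 8 each). Across subtypes Rps27l was highest in DCS (763 ± 182, SD, n = 4), tuft (530 ± 125, SD, n = 2) and stem-progenitor cells. DCS cells were shallow, as given above. Rps27l was lowest in Memory T cells (78.2 ± 19.9, SD, n = 7) and B mature cells (112 ± 28.8, SD, n = 8), where Rps27 stood at 9959 ± 1972 and 8330 ± 1616. Other lymphocytes were as low as B mature cells (84.5 to 167 CPM over mice), among them ILC2 (63.1 to 150) and Inactive T cells (38.4 to 218). As a percent of the members' UMIs Rps27l ranged from 0.609% ± 0.158 in enterocyte (SD, n = 4) to 0.0194% ± 0.00490 in Memory cells (SD, n = 7), a log2 range of 4.97.

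Other genes ranged less. Among the next widest between classes were Rps28 (range 1.01), Rpl12 (0.95), Rpl31 (0.94), Rpl28 (0.90), Rpsa (0.88), Rpl41 (0.87), Rpl10 (0.85) and Rpl24 (0.85). Rps28, Rpl31, Rpl28 and Rpl41 were highest in Epithelium, and Rpl12 and Rpsa in T cells. In Myofibroblasts Rps28 was lowest and Rpl10 and Rpl24 highest, and only mice 5, 6 and 7 had values there. Rps28 was low in mice 6 and 7 in other classes too, as given below. Class and mouse thus cannot be told apart in its range, which ran from 0.878 to 1.24 with 1 mouse left out. Rpsa, which also serves as a laminin receptor, made up 2.17% ± 0.217 in T cells (SD, n = 8) and 1.18% ± 0.189 in Lymphatics (SD, n = 7). Rpl10 and Rpl24 were lowest in T cells, Rpl10 at 0.796% ± 0.0662 there (SD, n = 8). Rpl41 reached 5.32% ± 1.34 of the members' UMIs in enterocyte cells (SD, n = 4; 4.59, 4.30, 5.13 and 7.26% in mice 1, 4, 5 and 8), against 1.19% ± 0.235 in Memory cells (SD, n = 7). Rpl12 went the other way in enterocyte cells, at 0.662, 0.670, 0.400 and 0.173% in the same mice. Small-subunit genes together gave 47.7% ± 0.358 of the members' UMIs in Memory (SD, n = 7) and 47.5% ± 0.277 in B mature cells (SD, n = 8). They gave 42.7% ± 0.263 in stem-progenitor (SD, n = 4) and 40.0% ± 2.07 in enterocyte cells (SD, n = 4).

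**Figure D4:**
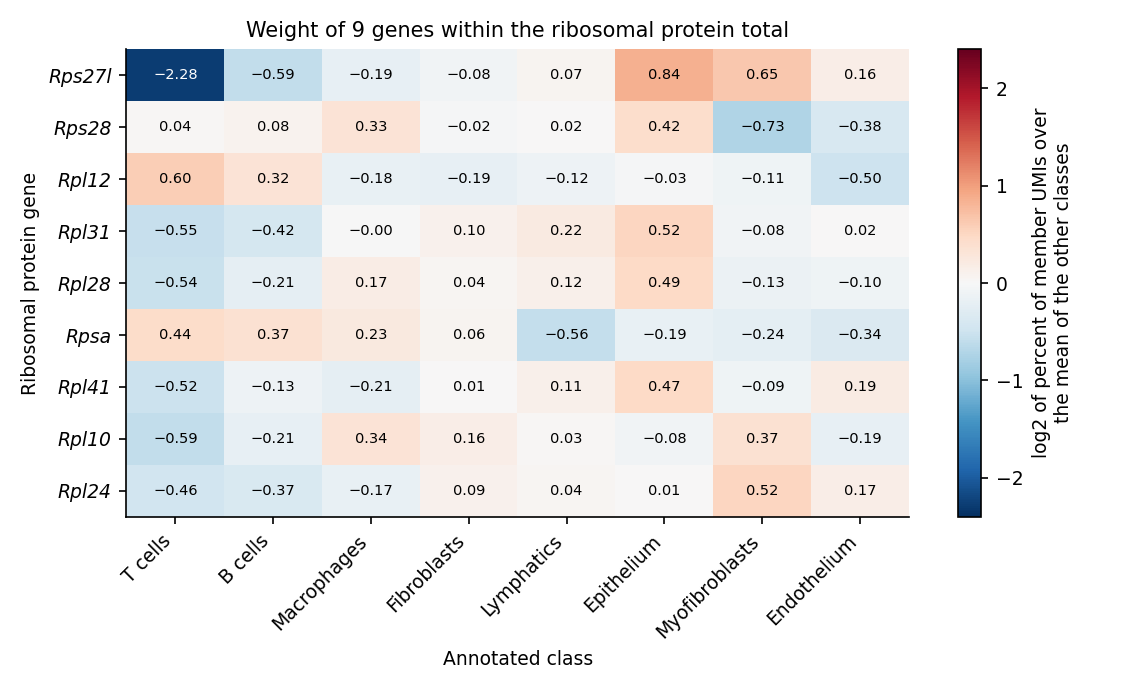
Log2 of each gene's percent of the ribosomal protein UMIs over the mean of the other classes (colour and number in each cell), for 9 of the 10 genes of widest range (vertical axis) in 8 annotated classes (horizontal axis), means over mice. Rps27l stands out with -2.28 in T cells and 0.84 in Epithelium. Myofibroblasts have mice 5, 6 and 7 only.

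Most members had a higher level in T cells than in Epithelium. In 8 of 8 mice 71 of 77 were higher, against 34.1% of 8896 genes of at least 20 CPM in both classes added, and 1, Rps27l, was lower, against 35.2%. The following 6 with roles outside or at the edge of the ribosome were chosen for those roles and are among the 71. Rplp0, the base of the ribosomal stalk, was at 5366 ± 930 CPM in T cells and 3044 ± 1089 in Epithelium (SD, n = 8 each). Its partners Rplp1 and Rplp2 were at 5650 ± 885 and 2889 ± 592 CPM in T cells and at 2323 ± 450 and 1256 ± 247 in Epithelium (SD, n = 8 each). Rpl11 and Rpl5, which with the 5S RNA can bind Mdm2, were at 3248 ± 371 and 976 ± 190 CPM in T cells and at 1575 ± 440 and 613 ± 155 in Epithelium (SD, n = 8 each). Rpl22, a large-subunit protein with a known role in T cell development, was at 1780 ± 168 and 862 ± 201 CPM (SD, n = 8 each).

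Between the genotypes no difference in the share was seen beyond the spread over mice. In Epithelium, where the deletion is directed, KO-labelled mice had 9.07, 11.2, 16.1 and 15.6% (mice 2, 3, 6 and 7) and WT-labelled mice 9.50, 12.1, 15.9 and 10.9% (mice 1, 4, 5 and 8). The means were 13.0% ± 3.42 and 12.1% ± 2.73 (SD, n = 4 each), and the groups overlapped throughout. T cells had 27.1% ± 2.51 and 26.8% ± 2.60, B cells 19.4% ± 4.25 and 19.3% ± 5.08, and Fibroblasts 14.8% ± 0.261 and 15.2% ± 0.649 in KO-labelled and WT-labelled mice (SD, n = 4 each). Macrophages, Lymphatics and Endothelium also overlapped. Myofibroblasts, with 2 mice and 1, were not compared.

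Single members were tested with edgeR's quasi-likelihood test on UMIs summed per mouse, with Benjamini-Hochberg adjustment over all genes tested. None of the 77 was called in any of 7 classes at an adjusted p of 0.05, and none in any of 11 subtypes. The share of all genes called was 0% in Epithelium (0 of 11723), T cells (0 of 8706), B cells (0 of 10444), Fibroblasts (0 of 11023) and Endothelium (0 of 1533; 76 members tested there). It was 0.146% in Lymphatics and 0.111% in Macrophages, 0.0228% in Activated T cells and 0% in the other 10 subtypes. At an unadjusted p of 0.05, 96 of all genes passed in Epithelium, 157 in T cells, 109 in B cells, 197 in Fibroblasts and 72 in Endothelium. Of the members, 4 passed in Endothelium, 2 in Macrophages and 0 in the other 5 classes, that is 5.26% of members against 4.70% of all genes in Endothelium and 2.60% against 2.72% in Macrophages. Among subtypes 3 passed in Inactive (3.90% against 2.18% of all genes), 3 in Memory (3.90% against 3.40%), 1 in Activated (1.30% against 3.31%) and 1 in ILC1-NK (1.30% against 3.18%), and 0 in the rest. These shares were mostly near or below that of all genes. DESeq2 called 0 members in each class and subtype. On simulated counts the edgeR test recovered a 2-fold change in 50% of the altered genes in Epithelium and 19% in Macrophages, and a 4-fold change in 88% and 80%.

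Member medians were small. Log2 changes of KO-labelled over WT-labelled mice had a median of 0.13 in Epithelium, 0.08 in T cells, 0.017 in Fibroblasts and 0.07 in Lymphatics. The median was -0.014 in B cells, -0.09 in Endothelium and -0.14 in Macrophages. All genes tested had medians between -0.015 and 0.013 in these classes. Positive changes were seen for 57 of 77 members in Epithelium, 57 in T cells, 41 in Fibroblasts and 55 in Lymphatics. They were seen for 30 in B cells, 7 in Macrophages and 24 of 76 in Endothelium. Of all genes tested, 48.7 to 52.8% were positive. Without TMM factors 30 of 77 members were positive in Macrophages. With 1 mouse left out, the epithelial median ran from 0.00062 to 0.24 and that of Macrophages from -0.22 to -0.080. By the smallest p the named genes were Rps28 and Rpl38 in Epithelium, Rpl41 and Rpl37 in T cells, Rpl41 and Rpl36 in B cells, Rpl38 and Rps29 in Fibroblasts, Rpl37 and Rpl38 in both Macrophages and Endothelium, and Rpl7 and Rpl4 in Lymphatics. Rps28, part of the small subunit's head, had 1108, 1084, 1253 and 944 CPM in the epithelium of KO-labelled and 1049, 1321, 1728 and 1092 CPM in that of WT-labelled mice, a log2 change of -0.24 ± 0.202 (SE, n = 4 each; adjusted p = 1.00 in edgeR). The groups overlapped. Rpl37 in Macrophages had 2793, 2610, 2364 and 1720 CPM against 2950, 3716 and 2678 CPM, a log2 change of -0.49 ± 0.209 (SE; adjusted p = 1.00 in edgeR), again with an overlap. In Endothelium Rpl37 had 1229, 1270 and 1455 against 2672, 1917 and 1782 CPM, on a total of 1176 UMIs (-0.67 ± 0.274, SE, adjusted p = 0.995 in edgeR). These values did not overlap. The gene was picked there by its small p, and the share of all genes without overlap was not counted, so this is no result. Rpl7 and Rpl4 in Lymphatics were higher on average in KO-labelled mice (0.36 ± 0.193 and 0.34 ± 0.200, SE; edgeR, adjusted p = 1.00 for both).

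The named genes of the other 6 classes were all lower on average in KO-labelled mice, and all are short, the longest coding sequence among them being the 318 bases of Rpl36. As a weight within the members' UMIs, such short genes were low in KO-labelled mice 6 and 7 and not in KO-labelled mice 2 and 3. In GENCODE M21 the 77 members have coding lengths from 78 bases (Rpl41) to 1260. After the per-mouse values had been seen, the 10 members of at most 300 coding bases were grouped: Rpl41, Rpl39, Rps29, Rps28, Rpl38, Rps21, Rps27, Rps27l, Rpl37a and Rpl37. In Epithelium they made up 19.3, 16.5, 12.5 and 10.7% of the members' UMIs in KO-labelled mice 2, 3, 6 and 7 and 17.6, 18.7, 16.2 and 15.4% in WT-labelled mice 1, 4, 5 and 8. Mice 6 and 7 lay below all others, while mouse 2 was the highest of the 8.

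Mice 6 and 7 were also lowest in the classes outside the epithelium. In T cells the 10 genes gave 17.2, 15.6, 11.8 and 9.64% in KO-labelled mice 2, 3, 6 and 7 and 15.7, 17.4, 16.0 and 13.8% in WT-labelled mice 1, 4, 5 and 8. Fibroblasts gave 17.0, 15.4, 11.5 and 10.3% against 16.2, 17.1, 15.6 and 14.5%. B cells gave 18.1, 16.1, 12.2 and 10.1% against 15.7, 18.1, 16.5 and 13.6%. Mouse 7 was lowest and mouse 6 next in each of these 4 classes and also in Macrophages (10.1 and 11.6%), Lymphatics (10.5 and 12.7%) and Endothelium (10.8 and 12.6%).

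**Figure D5:**
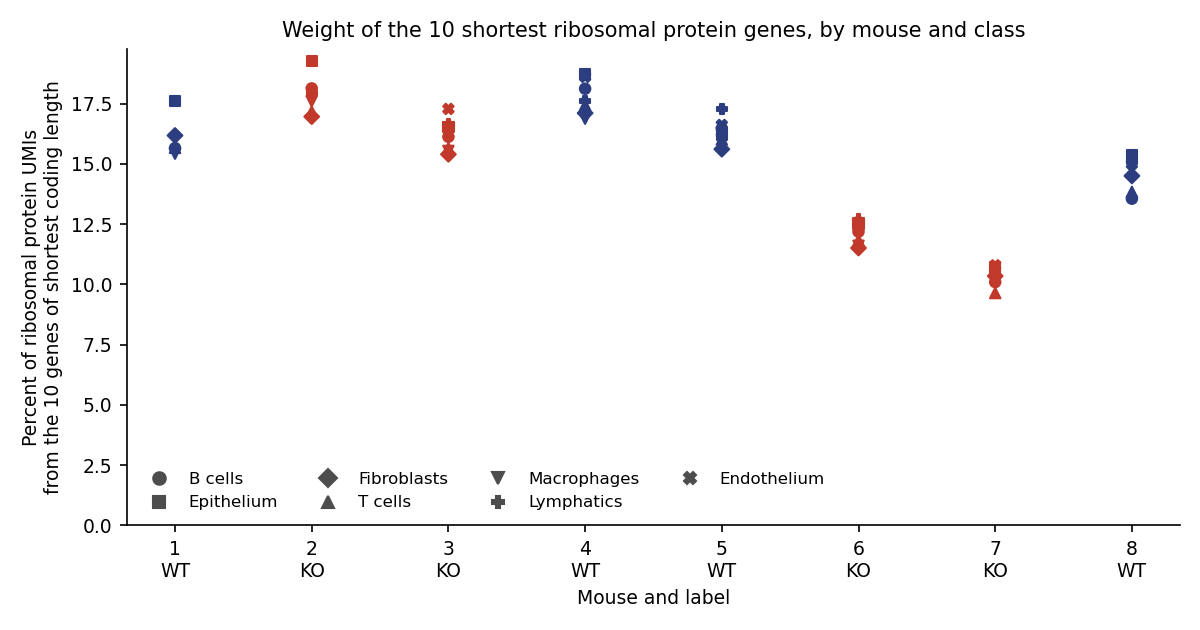
Percent of the ribosomal protein UMIs from the 10 members of at most 300 coding bases (vertical axis) in each mouse (horizontal axis, with its label), 1 symbol per annotated class, red for KO-labelled and blue for WT-labelled mice. In all 7 classes mouse 7 lies lowest and mouse 6 next, between 9.64 and 12.7%, while KO-labelled mice 2 and 3 lie with the WT-labelled mice.

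Gene by gene, each member's deviation from its own mean over mice was shared between cell types. Over 616 points (77 genes in 8 mice) Pearson's r between 2 classes ran from 0.76 (B cells and Fibroblasts) to 0.88 (Epithelium and T cells). The points share libraries, so these values are descriptions. Averaged over these 4 classes, Rps28 was at -0.75 (log2) in mouse 7 and -0.39 in mouse 6 but at 0.48 and 0.08 in KO-labelled mice 2 and 3. Rps29 was at -0.61, -0.36, 0.34 and 0.07 in the same mice. Of all 77 members, 25 were lowest and 28 highest in mouse 7. Among the 10 short genes, grouped after these values had been seen, 9 were lowest there. The exception was Rps27l, lowest in mouse 2 and highest in mouse 8 (0.56). Longer members ran the other way in mouse 7, among them Rps4x (0.41), Rplp0 (0.39) and Rpl15 (0.35). Rps15 (-0.72), Rps25 (-0.62), Rpl23a (-0.53) and Rps12 (-0.52) were lowest in WT-labelled mouse 8.

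In the genotype contrast the short members and the others had medians of opposite sign in 3 of these 4 classes, and all medians were small. In Epithelium the 10 short members had a median log2 change of -0.17 with 10 of 10 negative, and the 67 others 0.14 with 10 of 67 negative. T cells gave -0.21 and 0.10, Fibroblasts -0.20 and 0.035, and B cells -0.22 and -0.00079, each with 10 of 10 short members negative. Without mouse 7 the short members' median moved to -0.063 in T cells, -0.098 in Fibroblasts and -0.034 in B cells, and to -0.14 in Epithelium. Of the 10 short members, 9 were then negative in T cells, 9 in Fibroblasts, 8 in B cells and 10 in Epithelium. Without mouse 6 instead, the median was -0.25 in T cells, -0.14 in Fibroblasts, -0.16 in B cells and -0.22 in Epithelium, with 10 of 10 negative in each. Genes outside the set with coding lengths of at most 300 bases and at least 50 CPM had a median deviation in mouse 7 of 0.075 on the log2 scale in Epithelium (147 genes), 0.045 in T cells (140 genes), 0.0056 in Fibroblasts (146 genes) and -0.25 in B cells (119 genes). The labels name 1 processing day for all mice. A part of library preparation in the pattern was not tested.

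Other genes of the translation machinery varied with the members across the 22 subtypes with a share, to different degrees. The 7 measured subunits and relatives outside the rule gave r = 0.98 with the members' share and 20 translation factors 0.96. Assembly factors of the nucleolus gave 0.74, proteins of the mitochondrial ribosome 0.34 and upstream regulators such as Myc and Mtor -0.017. These are correlations over 22 subtype means that share mice and depth, given as descriptions. Fau, fused to a ubiquitin-like protein, was at 4958 ± 293 CPM in T cells and 2523 ± 179 in Epithelium (SD, n = 8 each). Eef1a1, which brings aminoacyl-tRNA to the ribosome, was at 7411 ± 1225 and 3736 ± 1322 CPM, and Ncl, nucleolin, at 503 ± 37.2 and 235 ± 65.6 CPM (SD, n = 8 each). Mrps24 of the mitochondrial ribosome was at 144 ± 34.3 CPM in T cells and 213 ± 64.3 in Epithelium (SD, n = 8 each). In the genotype contrast edgeR called 0 genes of each of these 5 lists in each of the 7 classes. Over the 759 tests of list genes in those classes 6 passed an unadjusted p of 0.05 in edgeR, and DESeq2 called 0 with 2 at that level. Of 20 translation factors 19 were positive in Epithelium (median log2 change 0.17), 19 in Lymphatics (0.18), 18 in T cells (0.11), 17 in Fibroblasts (0.04), 13 in B cells (0.027) and 10 in Macrophages (-0.0052), and of 18 tested in Endothelium 12 (0.07). Of all genes tested, 48.7 to 52.8% were positive in these classes.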

How the data were processed

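Per the labels' protocols, distal colonic mucosa was digested, annexin V-positive cells were removed and 10x 3′ libraries of all mice were made on 1 day. Cell Ranger 3.0.2 and the mm10 build are given in the submitters' processing notes, and no source used here gives the tools for filtering and naming cells. The authors' deposited matrix holds raw UMI counts of 31053 genes in 53080 cells. The deposited size factor, a ratio of a cell's total to the geometric mean of all totals, served only to match cells to the matrix: 53080 of 53080 agreed (tolerance 1e-06) after sorting by mouse and barcode, and 16 in file order. Of 52717 distinct barcodes 356 occurred in 2 or more libraries. The 1316 cells the authors named doublets were left out, and no caller was run.

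Counts were summed per mouse and per class or subtype of the authors, with 20 or more cells per sum; the mouse was the replicate. Shares are sums of member UMIs over non-mitochondrial UMIs. KO-labelled and WT-labelled sums were compared with edgeR 4.0.16 (quasi-likelihood test, TMM, filterByExpr, threshold 0.05) where 3 or more mice per group had a sum, and with DESeq2 1.42.0 as an alternative (R 4.3.3). The code was tested on simulated data. Named genes were, per class, those of adjusted p under 0.05 or else the 2 of smallest p, the 10 of widest range between classes, the 5 of most UMIs and those of known roles. Some genes that these rules name are not reported here. The members and lists were chosen with earlier results of these data known.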

Additional observations from a re-analysis of the deposited data

Results flagged for a closer look

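Among 50 groups of 4 or more mice checked for a single distant mouse (Dixon's test at 95%, which chance passes in about 1 of 20 groups), 2 passed. In Fibroblasts the ribosomal protein share of WT-labelled mouse 5, 14.2%, lay below the 15.4, 15.5 and 15.6% of the other WT-labelled mice. In T cells the share of KO-labelled mouse 6, 30.9%, lay above the 25.5, 26.2 and 26.0% of the other KO-labelled mice, and Memory cells were 39.9% of its T cells against 12.4, 13.4 and 17.4% in those mice. Inactive cells were 6.60% of the T cells of mouse 6 against 49.8, 40.5 and 5.19% in mice 2, 3 and 7. A part of this makeup in the value was not tested.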

How the results depend on the processing

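In 212 fits, with the alternatives of normalization, filter, covariate, cell choice, DESeq2 and each mouse left out, edgeR or DESeq2 called 0 members. The log2 changes of the named genes kept their direction and stayed short of the threshold. The genotype difference in share, KO-labelled minus WT-labelled in percentage points, moved by more than its spread in Endothelium (-1.40 with all mice, -5.85 in mice 1 to 4, with 1 mouse a group, and 0.822 in mice 5 to 8), Macrophages (-0.955, and 1.31 in mice 5 to 8), Plasma cells (-0.26, and 0.309 as a mean over cells) and B progenitors (0.165, and -0.466 to 0.796 with 1 mouse left out). Over all mice, the share was 25.9% in B cells without immunoglobulin genes. With mitochondrial UMIs in the total it was 8.56% in Epithelium, 14.5% in Fibroblasts and 10.3% in Myofibroblasts, and 15.9% in Epithelium in cells under 20% mitochondrial UMIs. Without a filter on low counts, 45 genes were called in Endothelium, 22 in Lymphatics, 37 in Macrophages and 14 in T cells. DESeq2 called 2 in Lymphatics and 7 in Macrophages. Leaving out 1 mouse gave 0 to 8 in Lymphatics, 0 to 7 in Endothelium and 3 to 7 in Macrophages. No paired analysis was possible because the groups share no replicate numbers. Small classes limit depth: Endothelium had 265 cells and Lymphatics 370. Doublets kept in their class, subtype fits and the length group were added after the data were seen.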
